A study of Mus musculus with 3 samples.

Results

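The 7 genes described here belong to the signal by which the mesenchyme of the embryonic kidney drives branching of the ureteric epithelium: Gdnf, Ret, Gfra1, Etv4, Etv5, Spry1 and Wnt11. They were chosen by symbol, 7 of the 32285 genes in the count matrices, and each symbol matched 1 row. Droplet single-cell RNA sequencing of whole kidneys from mouse embryos at E15.5 gave 3 libraries, 1 per group. Enl-WT embryos were Enl +/+ Wt1 GFPCre/+, and Enl-T1 embryos were Enl flox-T1/+ Wt1 GFPCre/+, so that the T1 insertion of ENL, a chromatin reader encoded by Mllt1, was expressed wherever Wt1 drove the recombinase. The Enl-T1 TDI-11055 embryos had the Enl-T1 genotype, and their mothers took 100 mg/kg of TDI-11055, an inhibitor of the acyl-binding pocket of ENL, orally once a day between E10.5 and E14.5. All 3 groups carried the Wt1 GFPCre knock-in, which inactivates 1 copy of Wt1. The recombinase acts in cells that express Wt1, the nephron lineage and part of the stroma, and not in the ureteric epithelium. The other 2 libraries are titled as untreated. Each library held kidneys of more than 1 embryo, pooled, and no file ties cells to embryos, so no difference between groups could be tested, and intervals are at 95% and reflect counting error alone. The insertion lies outside what counts of 3′ ends can show, so the targeted gene could not check the labels.

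GDNF is secreted by nephron progenitors and cortical stroma around the ureteric tips. It binds the co-receptor GFRA1, and the pair activates the receptor tyrosine kinase RET on tip cells. RET signalling turns on the transcription factors ETV4 and ETV5 and the secreted WNT11, which in turn maintains Gdnf in the mesenchyme, while SPRY1, an inhibitor of receptor tyrosine kinases, holds the signal back. Loss of Gdnf, Ret or Gfra1 leaves mice with small or missing kidneys, and loss of Spry1 gives extra ureteric buds.

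The genes lie on 7 chromosomes of GRCm38, the build of the counts. Gdnf is at chr15:7810846-7837575 on the plus strand, Ret at chr6:118151745-118197718 on the minus strand, Gfra1 at chr19:58235604-58455909 on the minus strand, Etv4 at chr11:101769742-101785371 on the minus strand, Etv5 at chr16:22381309-22439719 on the minus strand, Spry1 at chr3:37639947-37644598 on the plus strand and Wnt11 at chr7:98835112-98855195 on the plus strand (GENCODE M21). No other gene overlaps any of them on the same strand, and the libraries keep strand.

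The RefSeq table of promoters (GRCm38.p6) held entries for 5 of the 7 genes. Gdnf and Wnt11, the signals sent from mesenchyme and tip to each other, are shown with the 250 bases before each of their annotated starts. Gdnf in nephron progenitor-like cells and Wnt11 over all ureteric cells were lower in Enl-T1 and higher with TDI-11055. Gfra1, which is not printed, had the same directions in both of these classes. Within ureteric tip-like cells the lower level of Wnt11 in Enl-T1 did not hold across clusters. The letters CCGGAA or TTCCGG, the core bound by ETS factors such as ETV4 and ETV5 with its flanks, are in capitals. They stood in 1 of these 4 windows, and in 12.0% of all promoter windows of that length. Among windows not printed, they stood in that of Gfra1 but not in those of Etv5 and Spry1. This describes letters only.
Gdnf, chr15:7809798-7810047, plus strand: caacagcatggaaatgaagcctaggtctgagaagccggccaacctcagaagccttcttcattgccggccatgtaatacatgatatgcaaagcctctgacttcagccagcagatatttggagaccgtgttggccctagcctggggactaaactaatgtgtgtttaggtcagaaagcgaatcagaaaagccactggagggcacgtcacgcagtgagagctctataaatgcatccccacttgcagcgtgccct
Gdnf, chr15:7813477-7813726, plus strand: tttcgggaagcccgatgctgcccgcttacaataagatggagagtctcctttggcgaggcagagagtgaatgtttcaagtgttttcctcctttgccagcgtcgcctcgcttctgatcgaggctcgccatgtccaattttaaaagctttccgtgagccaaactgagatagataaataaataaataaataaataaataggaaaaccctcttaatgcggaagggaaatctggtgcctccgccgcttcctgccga
Wnt11, chr7:98834862-98835111, plus strand: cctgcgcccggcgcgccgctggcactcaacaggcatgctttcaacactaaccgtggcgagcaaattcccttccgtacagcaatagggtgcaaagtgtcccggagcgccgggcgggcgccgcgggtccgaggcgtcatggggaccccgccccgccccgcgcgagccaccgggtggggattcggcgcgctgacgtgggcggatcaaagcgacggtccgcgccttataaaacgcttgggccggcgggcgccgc
Wnt11, chr7:98838595-98838844, plus strand: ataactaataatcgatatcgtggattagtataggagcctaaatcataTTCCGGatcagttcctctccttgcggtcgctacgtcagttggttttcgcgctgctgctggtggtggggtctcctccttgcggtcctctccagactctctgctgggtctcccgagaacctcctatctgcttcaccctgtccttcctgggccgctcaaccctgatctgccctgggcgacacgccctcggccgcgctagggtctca

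The libraries differed in ways that touch every level. Kept cells numbered 5233 in Enl-WT, 4144 in Enl-T1 and 2754 with TDI-11055, with medians of 5090 to 16931.5 UMIs (unique molecular identifiers, counted transcripts) per cell. Cells that held Xist but no UMI of a Y-linked gene were 26.5% of Enl-WT, 73.3% of Enl-T1 and 35.1% of the treated library, so the mix of sexes differed. Between 13 and 21 kept cells per library had a barcode also found in another library. Levels are given as CPM, UMIs summed over the cells of a class per 1e6 UMIs of that class, and a change as the log2 ratio of CPM relative to the median gene of the class. Both comparisons, Enl-T1 over Enl-WT and Enl-T1 TDI-11055 over Enl-T1, use the same Enl-T1 library, so they are not independent. A change is called past 1.5-fold in either direction among genes of at least 5 CPM on average. The median gene itself was 0.33 lower in nephron progenitor-like and 0.30 lower in ureteric cells of Enl-T1 than of Enl-WT on the log2 CPM scale.

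Ligand and receptor were highest in different cells (plot of levels by class). Gdnf, the ligand, was highest in cortical stroma-like cells, from 24.6 to 93.2 CPM over the 3 libraries, and in nephron progenitor-like cells, from 24.8 to 60.6 CPM, ranges that overlap. Renin or mesangial-like cells followed with 60.5 CPM in Enl-WT and 27.8 CPM in Enl-T1. In ureteric tip-like cells Gdnf was at or under 0.874 CPM, and medullary duct-like cells held no Gdnf UMI in any library, with an exact upper limit of 2.19 CPM in Enl-WT, the highest of the 3. Ret, the receptor, was highest in ureteric tip-like cells, from 128.0 to 199.2 CPM, then in cortical trunk-like cells, from 15.7 to 23.6 CPM, and these ranges did not overlap. Of all Ret UMIs in the ureteric epithelium, tip-like cells held 93.2% in Enl-WT, 89.1% in Enl-T1 and 95.1% with TDI-11055.

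**Figure D1:**
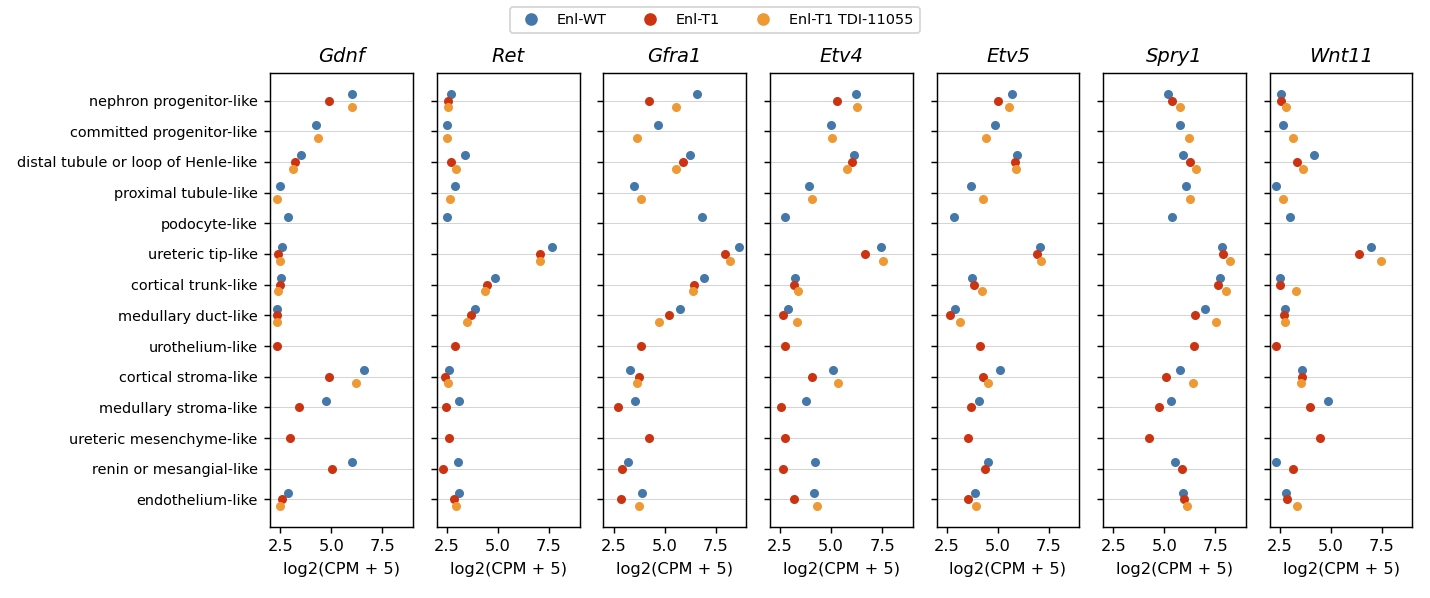
Level of each gene in each named class, as log2(CPM + 5) on the horizontal axis, with 1 point per library (blue Enl-WT, red Enl-T1, orange Enl-T1 TDI-11055) and only classes with at least 50 cells in that library. Gdnf stands out in progenitor-like, cortical stroma-like and renin or mesangial-like cells, and Ret and Wnt11 in ureteric tip-like cells.

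Gfra1, the co-receptor, was highest in tip-like cells, from 241.0 to 390.7 CPM, followed by cortical trunk-like cells at 79.3 to 118.2 CPM. Nephron progenitor-like cells also held Gfra1 at 13.9 to 91.6 CPM, a range that overlapped that of distal tubule or loop of Henle-like cells. Etv4 and Etv5, the ETS factors downstream of RET, were highest in tip-like cells, at 95.6 to 182.5 CPM and 118.1 to 132.3 CPM. Neither was restricted to the tips. Etv4 was at 50.6 to 64.5 CPM in distal tubule or loop of Henle-like cells and at 34.1 to 72.7 CPM in progenitor-like cells, ranges that overlap, and Etv5 at 52.2 to 56.1 CPM in the former and 27.5 to 46.5 CPM in the latter. Within the ureteric epithelium, Wnt11 had the highest share in tips, which held 98.1% to 99.3% of its ureteric UMIs. The share of Etv4 was 96.6% to 98.6%, with intervals that overlapped those of Wnt11 in each library. Spry1 was broad: tip-like cells (222.5 to 293.8 CPM) and cortical trunk-like cells (192.4 to 254.3 CPM) overlapped, and endothelium-like cells had 55.3 to 63.2 CPM.

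Tip-like cells were named without the 7 genes, which took no part in the clustering. Their 5 clusters were named from the mean fold of tip markers (Slco4c1, Adamts18, Tmem59l, Sox8 and Sox9), and 0 of them had such a marker among its 10 leading genes, since genes of the cell cycle or other genes led them. The 5 markers summed to 364.4 CPM in Enl-WT tip-like cells, 453.8 CPM in Enl-T1 and 465.7 CPM in Enl-T1 TDI-11055. Of the 4 nephron progenitor-like clusters, 1 had progenitor markers among its leading genes and the others were led by cell-cycle genes.

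In nephron progenitor-like cells, Gdnf was lower in Enl-T1 than in both other libraries. The 735 cells of Enl-WT held 258 Gdnf UMIs or 60.6 CPM (interval 53.5 to 68.5), the 624 cells of Enl-T1 held 199 UMIs or 24.8 CPM (21.4 to 28.5), and the 618 cells of Enl-T1 TDI-11055 held 633 UMIs or 58.5 CPM (54.0 to 63.2). The interval of Enl-T1 overlapped neither of the others, and those of Enl-WT and Enl-T1 TDI-11055 overlapped. The CPM ratio of Enl-T1 over Enl-WT was 0.408 (0.338 to 0.493), a log2 change of -0.96 relative to the median gene. With TDI-11055 the ratio to Enl-T1 was 2.36 (2.01 to 2.78), a log2 change of 1.24. In this class 13.7% of the 9819 genes tested were past 1.5-fold lower in the first comparison and 6.42% were past it higher in the second.

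Gdnf was lower in Enl-T1 in each of the 4 progenitor-like clusters, where its change relative to the median gene ranged from -1.27 to -0.32, and higher with TDI-11055 in each, from 0.71 to 1.38. After each cell was thinned to 2000 UMIs, 9.45% of Enl-WT cells (69 of 730), 3.86% of Enl-T1 cells (24 of 622) and 10.4% of Enl-T1 TDI-11055 cells (64 of 617) held a Gdnf UMI, against at most 0.26% of endothelium-like cells, a class that should lack it. Unthinned cells, of 5214 to 19329.5 UMIs at the median, gave 24.5%, 21.2% and 50.8%. The 8 progenitor markers (Six2, Cited1 and 6 others) summed to 1187.2 CPM in Enl-WT, 384.7 CPM in Enl-T1 and 821.7 CPM in Enl-T1 TDI-11055 in the same cells, and the 10 stroma markers to 193.9, 131.4 and 84.1 CPM; their part in the result was not tested. Cells with over 5% mitochondrial UMIs were 83.8%, 68.4% and 18.9% of the class in the same order of libraries, and without them the changes of Gdnf were -0.89 and 0.86. In cells with Xist alone they were -1.08 and 1.26, and in cells with Y-linked UMIs alone -0.80 and 1.24. A further 398 nephron cells, led by Bmper, Snap91 and Col9a1 and left unnamed, held Gdnf at 41.1 CPM in Enl-WT, 27.9 CPM in Enl-T1 and 33.0 CPM in Enl-T1 TDI-11055, with intervals that overlap.

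Cortical stroma-like cells gave the same order of Gdnf levels, with Enl-T1 lowest. Gdnf was at 93.2 CPM (79.9 to 108.2) in the 363 cells of Enl-WT, 24.6 CPM (upper limit 29.9) in the 394 cells of Enl-T1 and 69.7 CPM (58.8 to 81.9) in the 165 cells of Enl-T1 TDI-11055. No interval reached another but for Enl-WT and Enl-T1 TDI-11055, which overlapped. The change relative to the median gene was -1.66 in Enl-T1 and 1.53 with TDI-11055, in a class where 13.0% of genes were past 1.5-fold lower and 12.6% past it higher. After thinning to 2000 UMIs the second change was 0.67, still past the fold. The 4 cortical stroma markers summed to 697.2 CPM in Enl-WT, 361.1 CPM in Enl-T1 and 459.1 CPM with TDI-11055 in these cells. In the same order, the 10 stroma markers summed to 3884.2, 4087.9 and 2296.0 CPM, and the 8 erythroid markers to 1725.6, 1437.4 and 5164.7 CPM. Of the cells, 66.7%, 49.5% and 11.5% were over 5% mitochondrial UMIs. The part of the markers was not tested, and in cells at or under 5% the changes of Gdnf were -1.92 and 1.47. Renin or mesangial-like cells held 57 Gdnf UMIs in Enl-WT and 21 in Enl-T1, a change of -0.86.

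**Figure D2:**
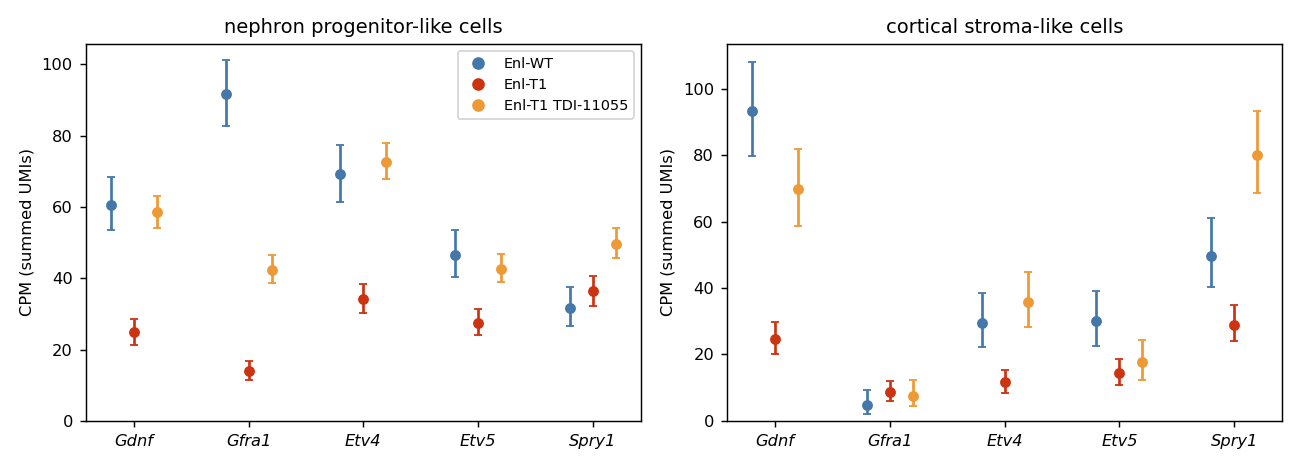
CPM of 5 of the genes in nephron progenitor-like cells (left) and cortical stroma-like cells (right), 1 point per library with its exact Poisson 95% interval. Gdnf is lower in Enl-T1 than in the other 2 libraries in both classes, and Gfra1 follows the same order in progenitor-like cells.

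Gfra1 showed the largest change of the 5 genes tested in nephron progenitor-like cells. It was at 91.6 CPM in Enl-WT, 13.9 CPM in Enl-T1 and 42.4 CPM in Enl-T1 TDI-11055. The library of Enl-T1 was low and the treated one lay between. The ratio of Enl-T1 over Enl-WT was 0.152, a change of -2.39 relative to the median gene, and with TDI-11055 the ratio to Enl-T1 was 3.04, a change of 1.61. In the thinned cells 17.9% of Enl-WT, 3.54% of Enl-T1 and 6.32% of Enl-T1 TDI-11055 cells held a Gfra1 UMI, against 0.778% to 1.72% of endothelium-like cells. The unnamed nephron cells led by Bmper held 39.2 CPM, 2.79 CPM and 22.2 CPM of Gfra1 in the same order of libraries.

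Etv4 and Etv5 were also found in progenitor-like cells, where Ret was near 1 CPM. Etv4 was at 69.1 CPM in Enl-WT, 34.1 CPM in Enl-T1 and 72.7 CPM in Enl-T1 TDI-11055, changes of -0.69 and 1.10 relative to the median gene. Etv5 was at 46.5, 27.5 and 42.7 CPM, within 1.5-fold of the median gene in the first comparison and past it higher in the second. Spry1 was at 31.7, 36.3 and 49.7 CPM and was within 1.5-fold both times, with changes of 0.52 and 0.46. The first call of Spry1 was kept under 8 of 12 alternatives (0.20 to 0.69). Over the 4 clusters its first change ranged from -0.12 to 1.0, below 0 in 1 of them. Of the 5 genes tested in this class, 3 were past 1.5-fold lower in Enl-T1 and 4 past it higher with TDI-11055, where 13.7% and 6.42% of all genes were. The first call of Etv4 was kept under 10 of 12 alternatives (-1.02 to -0.28, the smallest in cells with Xist alone), and over the 4 clusters Etv4 ranged from -1.09 to -0.11. The second call of Etv5 was kept under 8 of 12 (0.44 to 0.94). In cortical stroma-like cells Etv4 was at 29.5, 11.6 and 35.8 CPM and Spry1 at 49.8, 29.0 and 80.2 CPM.

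In the ureteric epithelium, 4 of the 6 genes tested were past 1.5-fold lower in Enl-T1 (Etv4, Ret, Gfra1 and Wnt11) and all 6 were past it higher with TDI-11055, where 10.2% of the 10438 genes were past it lower in the first comparison and 7.46% higher in the second. Ret held 1223 UMIs or 118.2 CPM in the 1662 ureteric cells of Enl-WT, 856 UMIs or 57.8 CPM in the 1136 of Enl-T1, and 1646 UMIs or 88.2 CPM in the 976 of Enl-T1 TDI-11055. The level with TDI-11055 lay between the other 2. The changes relative to the median gene were -0.73 (-0.86 to -0.60) and 0.59 (0.47 to 0.71), the second just past the 1.5-fold limit. Gfra1, at 255.0, 124.8 and 208.8 CPM, had the same first change of -0.73 and a second of 0.72.

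Of the target genes, Wnt11 was at 66.2 CPM in Enl-WT, 32.4 CPM in Enl-T1 and 113.1 CPM in Enl-T1 TDI-11055, and the treated library was the highest. Its changes were -0.73 (-0.90 to -0.56) and 1.78 (1.64 to 1.93). Etv4 was at 96.5, 39.6 and 121.3 CPM, changes of -0.99 and 1.60. Etv5, at 75.0, 50.7 and 90.6 CPM, and the inhibitor Spry1, at 198.2, 164.9 and 272.3 CPM, were within 1.5-fold of the median gene in Enl-T1 (-0.26 and 0.04) and past it with TDI-11055 (0.82 and 0.70). Counting Gdnf in progenitor-like cells with these 6, 5 of the 7 genes were past the fold in the first comparison, all lower, and 7 in the second, all higher. The second calls of Wnt11 and Etv4 in the ureteric epithelium were kept under all 13 alternatives. Those of the others were kept under fewer: 8 of 13 for Ret, 9 for Spry1 and 10 each for Gfra1 and Etv5.

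**Figure D3:**
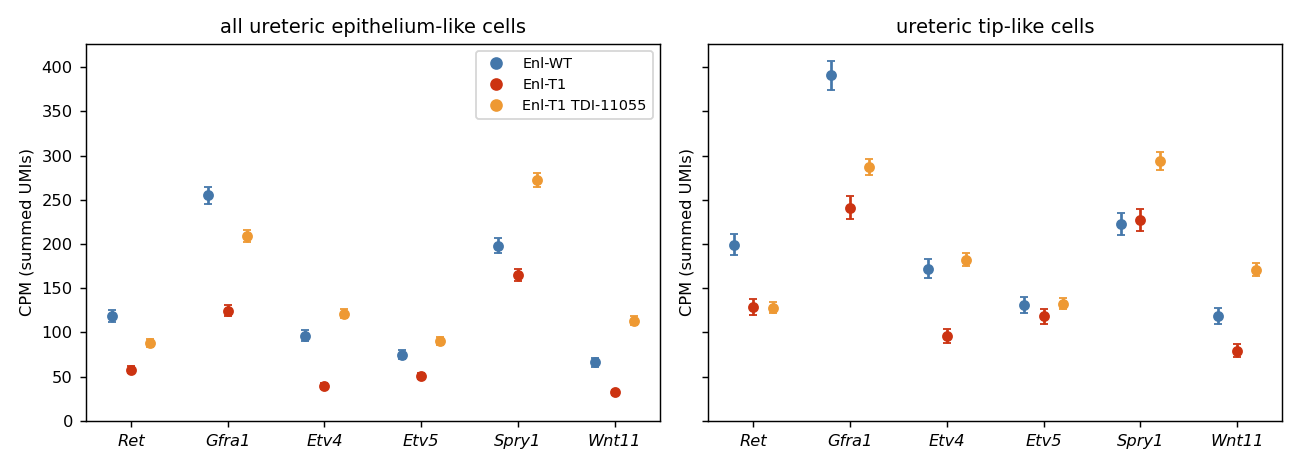
CPM of the 6 ureteric genes over all ureteric cells (left) and over tip-like cells alone (right), 1 point per library with its exact Poisson 95% interval. Ret is at 57.8 CPM in Enl-T1 and 88.2 CPM in the treated library on the left but at 128.9 and 128.0 CPM on the right, while Etv4 and Wnt11 are highest in the treated library in both panels.

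Tip-like cells were a smaller share of the ureteric epithelium in Enl-T1. They were 945 of 1662 ureteric cells in Enl-WT, or 56.9% (54.4 to 59.3), 442 of 1136 in Enl-T1, or 38.9% (36.1 to 41.8), and 589 of 976 in Enl-T1 TDI-11055, or 60.3% (57.2 to 63.4). Medullary duct-like cells were 15.6%, 29.3% and 10.6%. Cells with over 5% mitochondrial UMIs were 54.1% of tip-like cells in Enl-WT, 24.9% in Enl-T1 and 5.09% with TDI-11055, and 96.2%, 79.9% and 60.2% of medullary duct-like cells. With a limit of 5% in place of 10%, the tip-like shares were 87.3%, 64.1% and 69.3%. The treated library then lay nearer to Enl-T1 than to Enl-WT, whereas at 10% its interval overlapped that of Enl-WT.

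**Figure D4:**
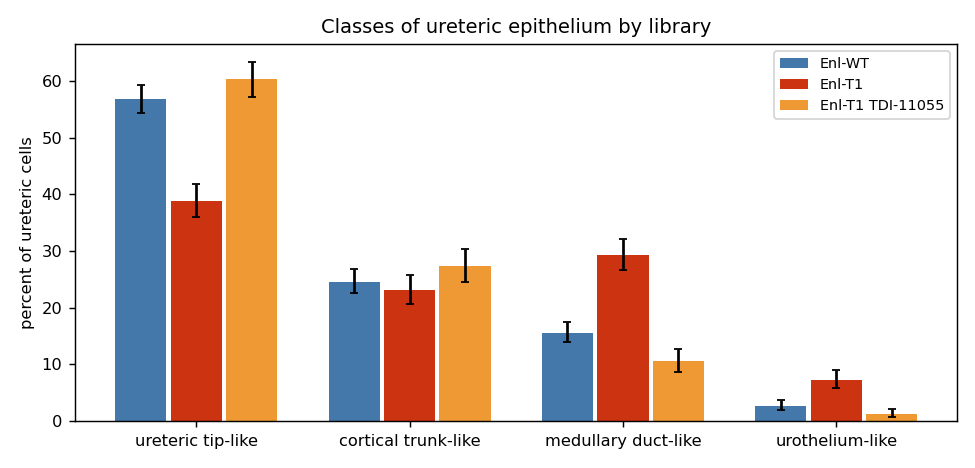
Share of each ureteric class among the ureteric cells of each library, in percent, with exact Clopper-Pearson 95% intervals. Tip-like cells are 38.9% in Enl-T1 against 56.9% in Enl-WT and 60.3% with TDI-11055, and medullary duct-like cells are the reverse.

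Within tip-like cells the changes of Ret, Gfra1, Etv4 and Wnt11 in Enl-T1 were smaller than over all ureteric cells. There 0 of the 6 genes tested was past 1.5-fold relative to the median gene. Of 10236 genes, 10.0% were past it lower. The count of 0 depended on the processing. Etv4 stayed within the fold under 8 of 11 alternatives (-0.85 to -0.42), and Ret (-0.63 to -0.13) and Gfra1 (-0.70 to -0.31) under 9 of 11. Etv5, Spry1 and Wnt11 stayed within it under all 11. Ret was at 199.2 CPM in Enl-WT, 128.9 CPM in Enl-T1 and 128.0 CPM in Enl-T1 TDI-11055. The last 2 libraries did not differ beyond counting error: the treated library had 0.993 times the level of Enl-T1 (0.91 to 1.08). Gfra1 was at 390.7, 241.0 and 287.0 CPM, with changes of -0.42 and 0.27 relative to the median gene. Etv5 (130.7, 118.1 and 132.3 CPM) and Spry1 (222.5, 227.1 and 293.8 CPM) had first changes of 0.13 and 0.31. Over all ureteric cells those were -0.26 and 0.04, so the change of Spry1 was larger in tip-like cells. Etv4, at 171.8, 95.6 and 182.5 CPM, had changes of -0.57 and 0.95, and Wnt11, at 118.8, 79.5 and 170.7 CPM, changes of -0.30 and 1.11. Only Etv4 and Wnt11 were past the fold in the second comparison, where 4.77% of genes were past it higher.

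When the ureteric classes of each library were weighted by their share of cells in Enl-WT, an alternative added after the data were seen, the change of Ret in the ureteric epithelium was -0.33 in Enl-T1 and -0.04 with TDI-11055, and that of Gfra1 -0.38 and 0.18. Wnt11 was then at -0.28 and 1.09, and Etv4 at -0.54 and 0.91. Over the 5 tip-like clusters Ret was lower in Enl-T1 in every one, from -0.85 to -0.18 relative to the median gene, and went from -0.34 to 0.62 with TDI-11055. Etv4 was lower in Enl-T1 in all 5 and higher with TDI-11055 in all 5, and Wnt11 higher with TDI-11055 in all 5, from 0.43 to 2.05. Wnt11 was below 0 in Enl-T1 in only 2 of the 5, with a range of -1.61 to 0.31, so its lower level there did not hold across clusters.

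In tip-like cells thinned to 2000 UMIs, 30.8% of Enl-WT cells (27.8 to 33.9), 23.4% of the Enl-T1 cells (19.5 to 27.6) and 22.4% of treated cells (lower limit 19.1) held a Ret UMI, and the last 2 intervals overlap. Unthinned, the order was turned: 60.5%, 66.3% and 80.1%. Wnt11 was found in 17.7%, 14.7% and 24.1% of thinned cells and Gfra1 in 53.1%, 34.7% and 41.0%. Spry1 was found in 33.9%, 38.8% and 44.6% of tip-like cells, but also in 9.87%, 7.0% and 13.8% of endothelium-like cells, the only one of the 7 genes above 3% there. At least 3 of the 6 ureteric genes were found together in 27.4% of tip-like cells of Enl-WT, 18.6% of Enl-T1 and 28.4% of Enl-T1 TDI-11055.

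**Figure D5:**
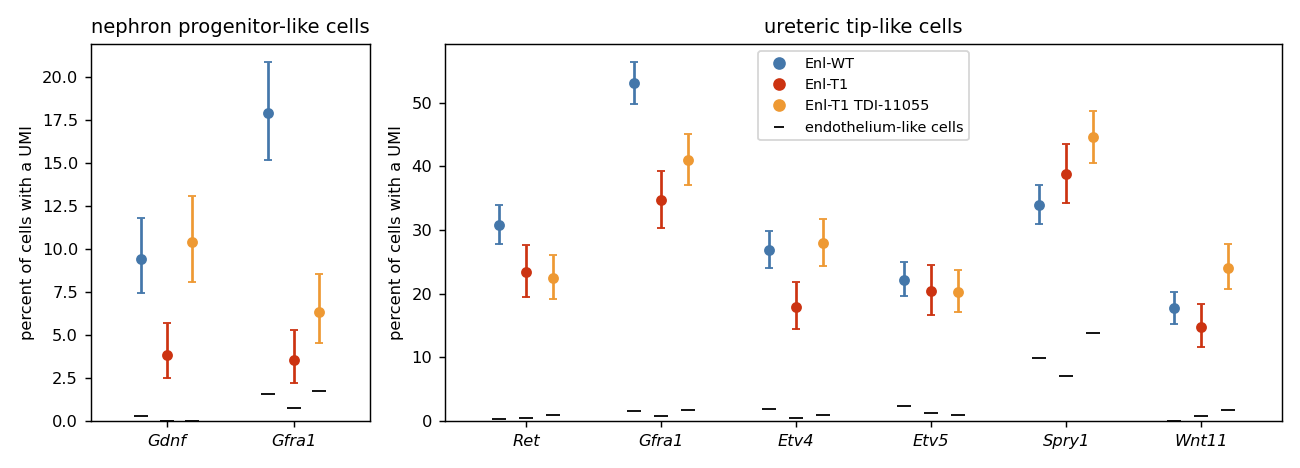
Percent of cells with at least 1 UMI of the gene after thinning to 2000 UMIs, for Gdnf and Gfra1 in nephron progenitor-like cells (left) and the 6 other genes than Gdnf in ureteric tip-like cells (right), with exact Clopper-Pearson 95% intervals, and black dashes for the share in endothelium-like cells of the same library. Every point lies above the dash of its library, and Spry1 has the highest dashes.

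Tip-like cells with a Ret UMI held Wnt11 more often than those without: 27.5% (22.4 to 33.1) against 13.3% (10.8 to 16.2) in Enl-WT, 18.4% (11.5 to 27.3) against 13.6% (10.1 to 17.7) in Enl-T1, and 33.3% (25.4 to 42.1) against 21.5% (17.8 to 25.6) in Enl-T1 TDI-11055. The intervals of Enl-T1 and of Enl-T1 TDI-11055 overlapped. Etv5 was in 31.0% against 18.3% of Enl-WT cells and in 29.5% against 17.5% of Enl-T1 TDI-11055 cells, and in Enl-T1 in 22.3% against 19.8%, where the intervals overlapped. Spry1 was in 34.1% and 33.8% of Enl-WT cells with and without Ret. Cells of 1 library share their depth and source, and these shares are a description.

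The number of target UMIs per Ret UMI does not depend on the scaling of a library. In the ureteric epithelium Etv4, Etv5, Spry1 and Wnt11 together gave 3.69 UMIs per Ret UMI (3.46 to 3.93) in Enl-WT, 4.98 (4.62 to 5.36) in Enl-T1 and 6.78 (6.43 to 7.14) in Enl-T1 TDI-11055, and no interval overlapped another. In tip-like cells the values were 3.23, 4.04 and 6.09. The genes differed between Enl-WT and Enl-T1: Spry1, which is also found widely outside the tips, was at 1.68 and 2.85 per Ret UMI and Etv5 at 0.635 and 0.877. Etv4 was at 0.817 (0.751 to 0.889) and 0.685 (0.615 to 0.761), intervals that overlap. With TDI-11055 Spry1 was at 3.09, Etv5 at 1.03 and Etv4 at 1.38. Wnt11 was level between Enl-WT and Enl-T1 in the ureteric epithelium, at 0.560 and 0.561 per Ret UMI, and was at 1.28 with TDI-11055. The co-receptor Gfra1, outside these 4 targets, was also level, at 2.16 in both, and was at 2.37 with TDI-11055.

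Other genes of the pathway, counted by lists, did not all follow the 7. Of 12 regulators of Gdnf in mesenchyme, 10 were tested in progenitor-like cells, 4 higher and 1 lower in Enl-T1, with a median change of 0.14, where 13.9% of all genes were past the fold higher and 13.7% lower. Hoxc11 went from 9.63 to 66.3 CPM (3.11 relative to the median gene) and Hoxa11 from 52.4 to 88.3 CPM (1.08), both members of the Hox groups on which Gdnf depends, while Osr1, a factor of early kidney mesenchyme, went from 69.3 to 34.7 CPM (-0.67) and to 81.7 CPM with TDI-11055. Of 11 genes that restrain the Gdnf domain or RET signal, 2 were higher and 4 lower in these cells. Foxc2 went from 36.2 to 84.4 CPM (1.55) and Bmp4 from 27.5 to 56.4 CPM (1.36), and the inhibitor Spry4 from 14.1 to 4.11 CPM (-1.45), with 12.5 CPM under TDI-11055. The 18 genes of RET signal transduction had 2 higher and 4 lower, and the 6 other ligands and receptors of the GDNF family had 2 tested, of which Gfra4 was past the fold.

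In the ureteric epithelium, all 9 regulators of Ret were tested. Of all 10438 genes tested in this class, 10.2% were past the fold lower in Enl-T1 and 7.46% higher with TDI-11055. Only Rarb, a retinoic acid receptor, was past the fold in Enl-T1, from 16.4 to 5.33 CPM (-1.32), and Rarb and Lhx1 were past it higher with TDI-11055, at 13.0 CPM (1.26) and 71.7 CPM (1.24). The 11 genes that restrain the Gdnf domain or RET signal had 6 tested and 3 lower, with the guidance ligand Slit2 from 186.0 to 55.6 CPM (-1.44). Of the 7 other genes downstream of RET in tips, all were tested, 3 were past the fold lower in Enl-T1, led by the metalloproteinase Mmp14 and the cyclin Ccnd1, and 4 higher with TDI-11055, among them Ccnd1, from 125.6 to 286.9 CPM (1.17). Within tip-like cells Mmp14 was past the fold lower in Enl-T1, from 155.9 to 78.2 CPM (-0.72).

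Over 42 points, each a class in a library, the level of Ret was most like that of Slco4c1 (Pearson r = 0.973 on log2(CPM + 5)), Ros1 (0.955) and 9230110F11Rik (0.93). Etv4 and Etv5 were each other's nearest gene, with r = 0.904. Gdnf was most like Hs6st2 (0.807) and Cdh2 (0.805). The points share libraries and depth, and Slco4c1 was a marker used to name tip-like cells.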

How the data were processed

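Whole kidneys were profiled by droplet sequencing of 3′ ends. The deposited values are raw counts of UMIs per gene and barcode, which the authors made with Cell Ranger 6.1.2 on mm10. A correction for free RNA is not given in the sources used here. Barcodes with 1000 to 6000 genes and at most 10% mitochondrial UMIs were kept, the study's filter; the gene maximum left out 61, 326 and 578 barcodes (Enl-WT first, treated last). Doublets were left in, and removing them (scanpy 1.11.5) was an alternative; the caller marked 3 barcodes in the treated library, so the 142 of highest score were removed there.

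Libraries were integrated by anchors in Seurat 5.3.0 (R 4.3.3). All cells were clustered on 30 components at resolution 0.5, then the nephron, ureteric and stromal lineages on 20 at 0.8. The 7 genes, the pathway lists, Hox, technical and sex-linked genes (239 in all) were left out. Clusters were named for the marker list best represented in their 10 leading genes, or else of highest mean fold; 160 ureteric cells led by another lineage were left out. Names were rebuilt, so differences from the study may come from them. UMIs were summed by class and library and given as CPM with exact Poisson intervals. Ratios have exact intervals from the split of counts, and shares exact Clopper-Pearson ones. Scripts were tested on simulated data.

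The 7 genes, the lists and the comparisons were chosen with earlier results of these data known. From each pathway list, the 2 genes of largest change in each direction past the fold could be named, and the 3 genes of highest correlation with each member. A gene that this rule would name is not reported here.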

Additional observations from a re-analysis of the deposited data

Results flagged for a closer look

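Gfra1 was past 1.5-fold in opposite directions in different classes; the difference between classes was not tested. In Enl-T1 over Enl-WT it was lower in nephron progenitor-like cells (-2.39 relative to the median gene), in the ureteric epithelium (-0.73) and in endothelium-like cells (-1.83, from 28 UMIs to 7), and higher in cortical stroma-like cells (1.09, from 9 UMIs to 35). The last rests on few counts: it is 4.82 against 8.62 CPM, a CPM ratio of 1.79 whose interval, 0.842 to 4.23, includes no difference, and both levels lie within the 2.19 to 9.68 CPM of endothelium-like cells. In those stroma-like cells the 10 ureteric epithelium markers summed to 67.5 CPM in Enl-WT and 134.2 CPM in Enl-T1, and the 5 tip markers to 27.9 and 99.9 CPM; their part in the result was not tested. In Enl-T1 TDI-11055 over Enl-T1 it was higher in progenitor-like cells (1.61), in the ureteric epithelium (0.72) and in endothelium-like cells (2.01, from 7 UMIs to 15, of which 1 cell held 10), and lower in medullary duct-like cells (-0.68, from 141 UMIs in 333 cells to 38 UMIs in 103 cells).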

How the results depend on the processing

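No paired analysis was possible because each group has 1 library, and no library could be left out for the same reason. Gdnf in progenitor-like cells kept its direction and its side of the 1.5-fold limit under all 12 alternatives run, from -1.29 to -0.80 in Enl-T1 over Enl-WT and from 0.86 to 1.44 in Enl-T1 TDI-11055 over Enl-T1. Not centred on the median gene, the first changes of Gdnf, Ret and Wnt11 were -1.29, -1.03 and -1.03, and that of Ret was -0.89 with a total free of mitochondrial, ribosomal protein and haemoglobin genes. The second change of Ret in the ureteric epithelium was past 1.5-fold under 8 of 13 alternatives: it was 0.03 with at most 5% mitochondrial UMIs, 0.34 with each cell thinned to 2000 UMIs, 0.39 as a mean over cells and 0.72 in Y-only cells, those with a Y-linked UMI but no Xist, and it turned to -0.04 with classes weighted as in Enl-WT. The second change of Wnt11 was 1.07, 1.46, 1.62, 1.54 and 1.09 in the same order, and that of Gdnf 0.86 with at most 5% mitochondrial UMIs. The first change of Wnt11 was -0.38 in Y-only cells. Weighted as in Enl-WT, the first changes of Ret and Wnt11 were -0.33 and -0.28, and the members past the fold were 1 and 3 in the 2 comparisons. In the second comparison they were 3 at 5% mitochondrial UMIs and 4 in thinned cells, and at a fold of 2 they were 0 and 3. The tip-like shares, Enl-WT first and the treated library last, were 87.3%, 64.1% and 69.3% at 5% mitochondrial UMIs. With clustering on all variable genes those of Enl-T1 and Enl-T1 TDI-11055 were 35.2% and 54.5%, and in Y-only cells 47.2% and 63.7%; in cells with Xist alone that of Enl-T1 was 35.2%. Cells with a Gdnf UMI were 24.5%, 21.2% and 50.8% unthinned and 19.5%, 7.1% and 19.2% at 4000 UMIs, and tip-like cells with a Ret UMI 60.5%, 66.3% and 80.1% unthinned and 51.7%, 38.4% and 37.5% at 4000. The cause was not tested in these cases. Depth limits single cells: at 2000 UMIs a Gdnf UMI was found in at most 10.4% of progenitor-like cells and a Ret UMI in at most 30.8% of tip-like cells.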

Other observations

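Barcodes above the maximum of 6000 genes, which took no part in the comparisons, numbered 55 in Enl-WT, 309 in Enl-T1 and 577 with TDI-11055 at a mitochondrial share of at most 10%. Gdnf was at 5.2 CPM (2.38 to 9.87), 2.17 CPM (1.46 to 3.09) and 15.7 CPM (14.3 to 17.3) over all of them, with no split by class. Wnt11 was at 5.78, 9.97 and 43.0 CPM, and Etv4 at 25.4, 14.9 and 57.9 CPM.

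Wnt11 was also found outside the ureteric tips. In medullary stroma-like cells it was at 23.8 CPM (13.0 to 40.0) in Enl-WT, from 14 UMIs, and in the 251 ureteric mesenchyme-like cells of Enl-T1 at 17.0 CPM (11.6 to 24.1). Other libraries held fewer than 50 cells of that last class.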
